A study of Mus musculus with 6 samples.

Results

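Cytochrome c oxidase is the last enzyme of the mitochondrial respiratory chain, and its nuclear genes were compared here between mice without PGC-1alpha and their wild-type littermates. The genes are those of a fixed list: 16 subunits, common forms and tissue isoforms together, and 16 factors that the enzyme needs for its assembly or for the expression of its mitochondrial subunits. Of these 32 genes, 30 had a probe set with exactly 1 gene symbol, and 28 gave a signal above the filter on dim probe sets, 13 subunits and 15 assembly factors. They are 28 of the 12323 named genes tested on the array, each represented by its brightest probe set unless stated otherwise. Cox7b and Taco1 had no such probe set, and Cox7a1 and Cox8b were too dim to be tested.

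RNA came from the striatum of 3 PGC-1alpha null mice (PGC-1a-/-, called KO below) and 3 wild-type littermates (PGC-1a+/+, called WT), bred from heterozygous parents. All 6 mice were female and 6 months old, the labels name no treatment, and each was measured on 1 Affymetrix array. The KO mice are germline nulls, so the gene is disrupted in neurons, glia and vessel cells alike, and the sources used here do not say which part of it was altered. KO 3 carries a label of cytoplasmic RNA where the other 5 mice carry total RNA, although the series design gives total RNA throughout, and this was not settled here. Values are MAS5 signals, in units scaled to the same trimmed mean on every array, so each difference is relative to the array as a whole. Whole-array correlations ran from 0.972 to 0.979, and the ratios of 3' to 5' signal for GAPDH and beta-actin, a measure of RNA integrity, overlapped between the genotypes. The targeted gene Ppargc1a gave signals of 89.5, 87.9 and 68.4 in KO mice, against 397.0, 305.0 and 370.3 in WT mice. It fell by 1.93 on the log2 scale (SE 0.14, limma adjusted p = 3.0e-05), and all 5 of its probe sets passed. Markers of medium spiny neurons, the main neurons of the striatum, were present in both groups (7 of 9 tested), with summed signals of 25387 to 27766 in KO and 23501 to 28066 in WT.

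The enzyme takes electrons from cytochrome c, passes them through copper and haem centres to oxygen, and pumps protons across the inner mitochondrial membrane. Its catalytic core is made in the mitochondrion, while the surrounding subunits are encoded in the nucleus and imported, so both genomes have to be expressed together. In the brain its activity is known to follow the energy use of neurons. PGC-1alpha has no DNA-binding domain of its own and acts through transcription factors such as NRF1, GABP and the oestrogen-related receptors, whose binding motifs have been described at promoters of cytochrome oxidase subunit genes.

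No cytochrome oxidase gene passed the threshold of an adjusted p under 0.05 (limma, Benjamini-Hochberg over 27022 probe sets). Over all named genes, 0.3% were called lower and 0.146% higher in KO. Most of the nuclear subunits nevertheless gave lower signals in KO: 11 of 13 subunit genes were lower, with a median difference of -0.22 on the log2 scale, and in 7 of them every KO mouse was below every WT mouse. Of the assembly factors 10 of 15 were lower, with a median of -0.05 and 1 gene apart in each direction, Cox17 lower and Cox18 higher. For comparison, 51.8% of all named genes were lower with a median of -0.0069, and 8.48% had all KO signals below all WT signals and 6.64% all above. At an unadjusted p under 0.05, 7 subunit genes and 1 assembly gene were lower and 1 assembly gene was higher, while 5.61% of all named genes were lower and 4.12% higher at that level. The replicates are separate mice, and 3 against 3 cannot give an exact permutation p below 0.1. Since the RNA is from whole tissue, fewer cells of a type and less RNA per cell cannot be told apart.

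**Figure D1:**
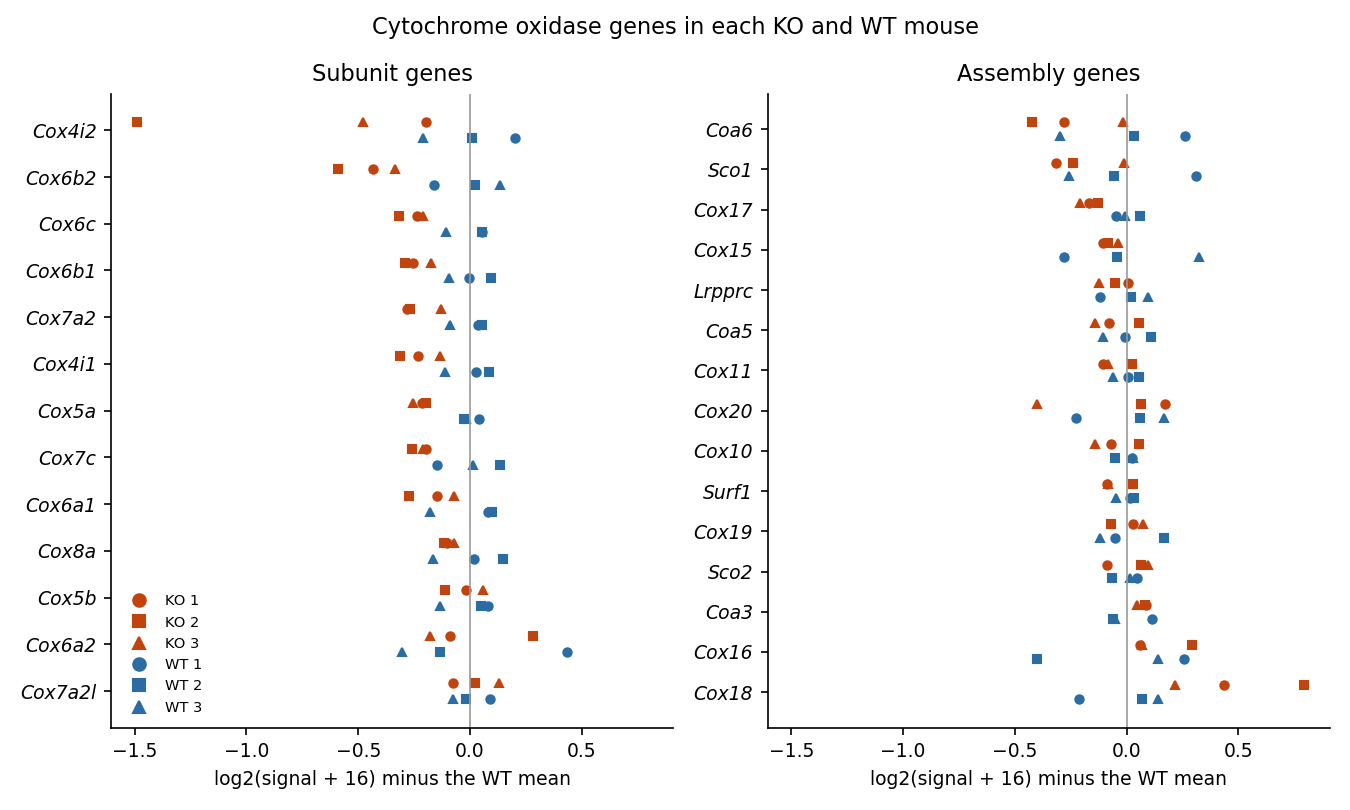
Each tested subunit gene (left panel) and assembly gene (right panel) in each mouse, as log2(signal + 16) minus the WT mean of that gene, with KO mice in orange above WT mice in blue and 1 marker shape per replicate number. Genes run from the lowest KO minus WT difference at the top to the highest at the bottom. In 7 of 13 subunit genes the KO markers lie left of all WT markers, against 1 of 15 assembly genes, and Cox18 is the only one of the 28 genes with all KO markers to the right.

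Among the subunits that form the shell around the catalytic core, Cox4i1 encodes the common form of subunit IV, which contacts the core and takes part in its control by ATP. Its signals were 5341, 5058 and 5726 in KO mice, against 6392, 6657 and 5815 in WT mice. All KO mice were below all WT mice, with KO 3 and WT 3 the nearest pair. The difference was -0.23 (SE 0.07, adjusted p = 0.32), which is -14.5% of the mean signal.

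Cox5a encodes a subunit on the matrix side of the enzyme, and gave 3722, 3768 and 3628 in KO mice against 4458, 4248 and 4279 in WT mice. The groups stood apart, with a spread within each genotype smaller than the gap between them. The difference was -0.22 (SE 0.06, adjusted p = 0.21), and the other 2 probe sets of the gene gave -0.23 and -0.25, also without overlap. Cox5b, which encodes the zinc-binding subunit on the same side, did not share this. Its signals were 6142, 5754 and 6470 in KO mice and 6576, 6430 and 5665 in WT mice, with KO and WT interleaved and a difference of -0.02 (95% interval -0.19 to 0.14). Its 5 tested probe sets ran from -0.08 to 0.32 and all overlapped.

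Cox6a1, Cox6b1 and Cox6c encode small subunits of the outer part of the enzyme. Cox6b1, which faces the intermembrane space where cytochrome c docks, gave 4938, 4815 and 5218 in KO mice against 5880, 6295 and 5523 in WT mice. Every KO signal was below every WT signal, with a difference of -0.24 (SE 0.07, adjusted p = 0.24), and its second probe set gave -0.20, also apart. Cox6c gave 4451, 4213 and 4533 in KO mice against 5453, 5441 and 4868 in WT mice. These groups were apart as well, at -0.25 (SE 0.07, adjusted p = 0.20), but the second Cox6c probe set gave -0.11 with overlapping groups. For Cox6a1 the brightest probe set read 8309, 7614 and 8754 in KO mice and 9744, 9847 and 8122 in WT mice. WT 3 lay inside the KO range there, and the difference was -0.16 (SE 0.08, adjusted p = 0.61; -0.25 without WT 3), while a second probe set gave -0.19 with the groups apart.

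Cox7a2 encodes the common form of subunit VIIa, a membrane-spanning subunit at the edge of the enzyme. It gave 5481, 5522 and 6083 in KO mice against 6824, 6914 and 6269 in WT mice, apart in every mouse, with a difference of -0.23 (SE 0.07, adjusted p = 0.27). Its second probe set gave 2999, 3110 and 2942 in KO mice against 4121, 3693 and 3517 in WT mice. That difference of -0.32 (SE 0.07) had the smallest adjusted p of all 47 tested probe sets of these genes, 0.102, and came to -20.1% of the mean signal. Cox7a2l, a relative of Cox7a2 whose product links the enzyme to complex III in supercomplexes, was not uniform over its probe sets. Its brightest gave 0.03 and another -0.05, both with overlap, and the third gave -0.28 with the groups apart. Cox7c, a small membrane subunit, was measured by a dim probe set at 83.8, 79.5 and 82.7 in KO mice and 87.3, 109.4 and 99.3 in WT mice. The groups were narrowly apart, with a difference of -0.22 (SE 0.14, adjusted p = 0.71).

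Cox8a encodes the common form of the smallest subunit. Its signals were 2624, 2600 and 2688 in KO mice and 2860, 3129 and 2511 in WT mice, and WT 3 was the lowest of all 6. The difference was -0.10 (95% interval -0.27 to 0.08), and its second tested probe set gave -0.15, again with overlap. Without WT 2 the first value was -0.023, and without WT 3 it was -0.18.

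**Figure D2:**
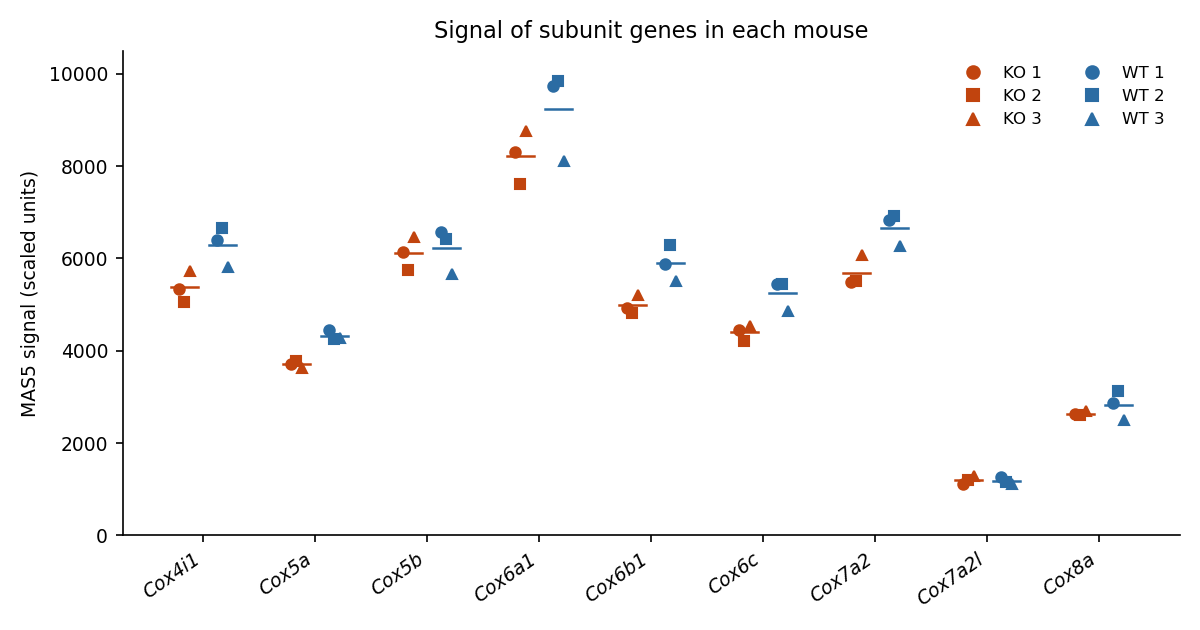
MAS5 signal (scaled units, axis from 0) of 9 subunit genes in each mouse, with KO mice in orange left of WT mice in blue, 1 marker shape per replicate number and a line at each group mean. Cox4i1, Cox5a, Cox6b1, Cox6c and Cox7a2 have all KO signals below all WT signals, whereas Cox5b, Cox6a1, Cox7a2l and Cox8a overlap. Heights of different genes are not to be compared, since each probe set binds with its own strength.

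Within a genotype the same mice tended to be high or low across the common subunits. Among the 10 tested subunit genes without tissue isoforms, WT 3 had the lowest WT signal in 8 and KO 3 the highest KO signal in 8, while KO 2 was the lowest KO mouse in 7. Of these 10 genes, 9 were lower in KO, 6 had no overlap, and the median difference was -0.22. Without WT 3 the count of members with all KO below all WT was 12, against 8 with all mice. It was 9, 11 and 8 without KO 1, KO 2 and KO 3, and 9 and 8 without WT 1 and WT 2. Groups separate more easily with a mouse fewer, and no share of all named genes is given for that case. Summed over the 13 tested subunit genes, the signal was 42395, 40806 and 44650 in KO mice, against 49800, 50448 and 44468 in WT mice, so that KO 3 lay inside the WT range. All 5 tested oligodendrocyte markers were lower in KO as well, with a median of -0.18 and summed signals of 22886 to 25039 in KO and 23552 to 28543 in WT, where WT 3 again had the lowest WT sum. Their part in the subunit differences was not tested.

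**Figure D3:**
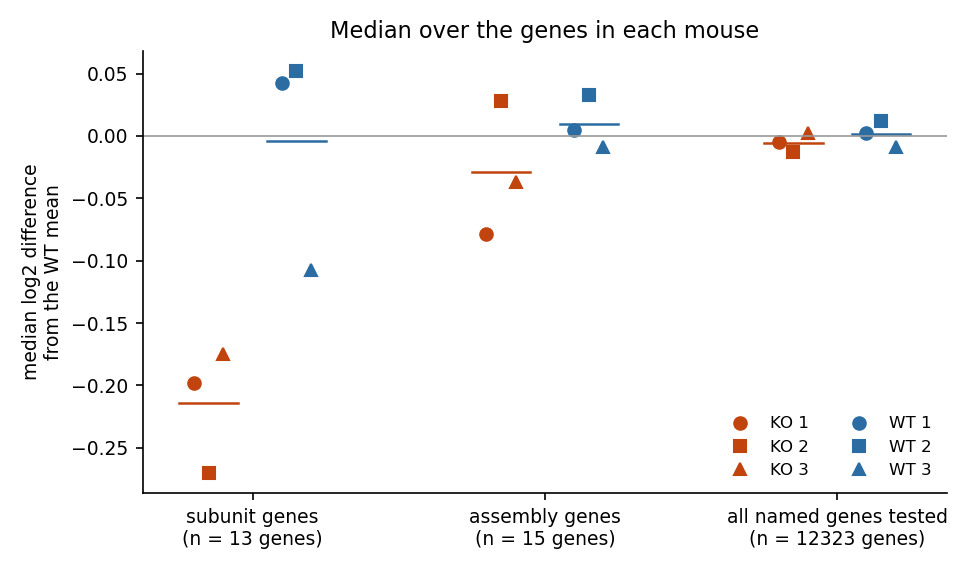
Median over genes of the log2 difference from the WT mean in each mouse, for 13 subunit genes, 15 assembly genes and all 12323 named genes tested, with KO in orange left of WT in blue and a line at each group mean. The subunit medians are -0.17 to -0.27 in KO mice and -0.11 to 0.05 in WT mice, while the assembly medians overlap and those of all genes lie close to 0.

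Tissue isoforms replace a common subunit in particular cell types, and their probe sets were dim in the striatum. Cox4i2, the oxygen-responsive form of subunit IV known from lung and from the pericytes of brain vessels, gave 36.2, 5.3 and 27.0 in KO mice and 52.9, 44.2 and 35.8 in WT mice. Only KO 1 reached into the WT range, and KO 2 was far below the rest. The difference of -0.72 (SE 0.30, adjusted p = 0.48) was -0.34 without KO 2, and, because the signals are so dim, -1.26 with an offset of 1 and -0.33 with an offset of 64 in place of 16. Of the 8 markers of pericytes and other mural cells, 7 were lower in KO with a median of -0.08, and their summed signals overlapped, at 1401 to 1810 in KO and 1673 to 1818 in WT. Their part in the Cox4i2 difference was not tested.

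Cox6b2, the form of subunit VIb known from testis, gave 44.7, 38.4 and 48.9 in KO mice against 57.4, 67.3 and 74.1 in WT mice. The groups stood apart, at -0.45 (SE 0.18, adjusted p = 0.43). Cox6a2, the heart and muscle form of subunit VIa that has also been described in parvalbumin interneurons, gave 104.0, 139.0 and 96.6 in KO mice and 156.6, 100.4 and 87.3 in WT mice. These overlapped throughout, with a difference of 0.0044 and a 95% interval of -0.42 to 0.43. All 4 parvalbumin interneuron markers were lower in KO, with a median of -0.50 and none called, and their summed signals were 1291, 1683 and 1160 in KO mice and 2752, 1544 and 1730 in WT mice. Cox7a1 and Cox8b, the other heart and muscle forms, were below the filter, set at a signal of 26.8 on the mean log2 scale. Cox7a1 gave 28.7, 12.9 and 9.0 in KO mice and 47.1, 16.2 and 20.5 in WT mice, and Cox8b gave 23.9, 21.8 and 14.2 in KO mice and 22.8, 26.7 and 33.4 in WT mice. Both overlapped. Of 8 markers of striated muscle, 7 were below that filter too, and the remaining one, Acta1, differed by 0.01.

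The assembly factors fall by task, and copper delivery comes first. Cox17 is the chaperone that receives copper between the mitochondrial membranes and hands it on to Sco1, Sco2 and Cox11. It gave 1414, 1455 and 1378 in KO mice against 1539, 1659 and 1583 in WT mice. The groups were apart, at -0.17 (SE 0.07, adjusted p = 0.46), which is -11.2% of the mean signal. For the genes of the next steps the groups overlapped, though Sco1 and Coa6 differed by no less than Cox17, with wider intervals. Sco1 and Sco2, which build the copper centre that accepts electrons from cytochrome c, differed by -0.19 (95% interval -0.63 to 0.26) and 0.02 (-0.31 to 0.36) from dim probe sets. Coa6, which works with them, gave -0.24 (-0.55 to 0.07), with KO 1 and KO 3 inside the WT range. Without WT 1, Sco1 gave -0.033 and Coa6 -0.11, and without WT 3 they gave -0.32 and -0.39. Cox11, which inserts the copper of the inner centre, gave -0.05, Cox16, which helps load the second core subunit, 0.14, and Cox19, a small partner of copper delivery, 0.01, all with overlap.

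The haem of the enzyme is made from ordinary haem by Cox10, which attaches a farnesyl chain, and Cox15, which oxidises the product. Cox10 gave signals of 177, 195 and 168 in KO mice and 190, 179 and 191 in WT mice, and Cox15 gave 156, 159 and 164 in KO mice and 136, 164 and 215 in WT mice. Neither separated the genotypes, with differences of -0.05 and -0.07. One dimmer probe set of Cox15 gave -0.21 with all KO mice below all WT mice and an adjusted p of 0.72, and the other tested probe sets of both genes overlapped.

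Cox18 inserts the tail of the second core subunit into the inner membrane. It was the only tested member with all KO signals above all WT signals, at 231.7, 301.2 and 196.4 in KO mice against 141.8, 175.8 and 185.7 in WT mice. KO 2 was the highest, and KO 3 and WT 3 were the nearest pair. The difference was 0.48 (SE 0.15, 95% interval 0.15 to 0.82, adjusted p = 0.30), from its only probe set. Cox18 lies on chromosome 5, as Ppargc1a does, with 169 protein-coding genes between them in the GRCm38.p6 gene table. It is 1 of 3 listed members on that chromosome, and another, Cox6a1, differed by -0.16. A part of the position in these differences was not tested. Cox20, which holds the same core subunit during insertion, gave 929.6, 862.9 and 619.2 in KO mice and 701.3, 857.9 and 927.0 in WT mice. The mice of both genotypes were spread alike there, and the difference was -0.05 (95% interval -0.36 to 0.25).

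Surf1, an early assembly factor whose loss in humans causes Leigh syndrome, gave 601, 653 and 603 in KO mice and 646, 656 and 618 in WT mice. The ranges overlapped at -0.05 (95% interval -0.22 to 0.12). Lrpprc, which stabilises mitochondrial messenger RNA and is mutated in the French Canadian form of that disease, gave 355, 341 and 324 in KO mice and 325, 359 and 380 in WT mice, at -0.06. Coa3, which ties synthesis of the first core subunit to assembly, gave 0.07 by its brightest probe set and -0.17 by another, and Coa5, an assembly factor of less settled role, gave -0.05 and -0.13. None of these probe sets separated the genotypes.

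Subunits and assembly factors were also set against each other within each mouse. The subunit median minus the assembly median was -0.12, -0.30 and -0.14 in KO mice, against 0.04, 0.02 and -0.10 in WT mice. The KO values were all below the WT values, with a mean of -0.19 ± 0.10 in KO and -0.01 ± 0.07 in WT (SD, n = 3 each), with KO 1 and WT 3 the nearest pair. It is given without a test because the lists were chosen with results of these arrays known. Most assembly genes also had dimmer probe sets, so class and signal level were not separated here. Members were set beside other genes of like signal. At mean signals of 4000 or more, all 7 members, every one a subunit, were lower with a median of -0.23, and 5 had no overlap. The 145 other named genes in that range had a median of -0.03, 66.9% of them were lower, and 12.4% had all KO below all WT. From 100 to 500, where 9 members lie, 8 of them assembly genes, 5 members were lower with a median of -0.05 and 0 were apart in that direction. The 5778 other genes of that range had a median of -0.0029 and 7.91% apart. Both classes also lie from 1000 to 2000, where the subunit gene Cox7a2l gave 0.03 and the assembly genes Cox17 and Coa3 gave -0.17 and 0.07. Under 100, the subunit genes Cox4i2, Cox6b2 and Cox7c gave -0.72, -0.45 and -0.22. The assembly genes Sco1 and Sco2 gave -0.19 and 0.02 there.

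**Figure D4:**
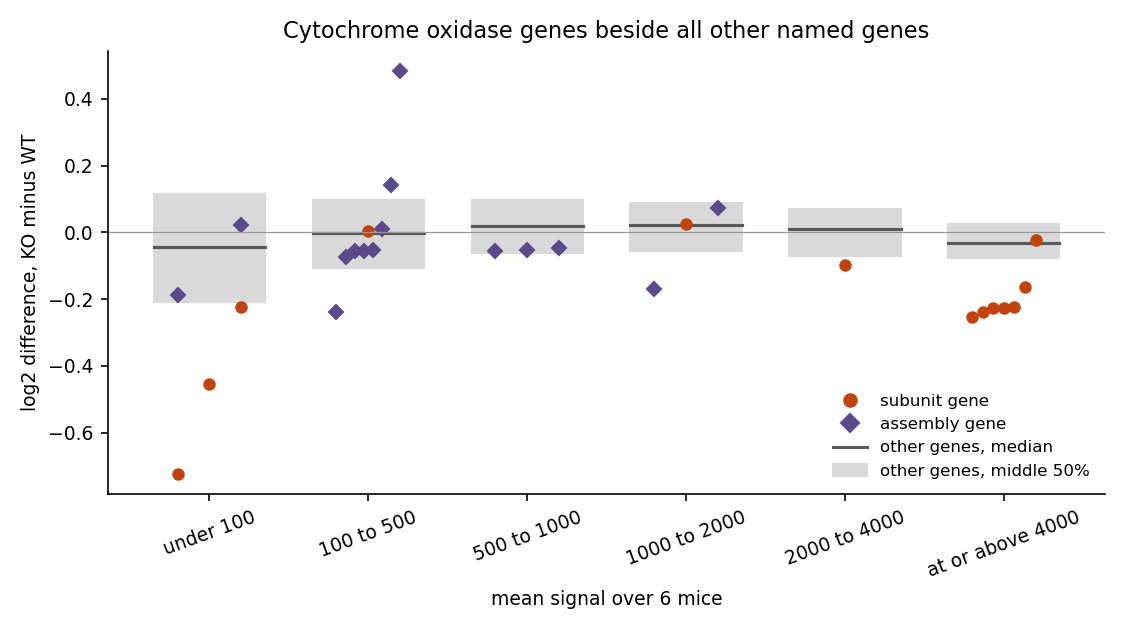
Log2 difference, KO minus WT, of each tested subunit gene (circles) and assembly gene (diamonds) by mean signal over the 6 mice, beside the median (line) and middle 50% (grey box) of all other named genes in the same signal range. At 4000 and above the 7 subunit genes have a median of -0.23 while the other genes have a median of -0.03, and in the range of 100 to 500 the members have a median of -0.05.

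Several genes were measured more than once, which shows how far a difference depends on the probe set. Of 12 members with more than 1 tested probe set, 8 had differences of a single sign, and Cox5b, Cox7a2l, Cox15 and Coa3 had both signs. Over all 47 tested probe sets, 36 were lower in KO, 15 had all KO below all WT and 1 had all KO above. They come from 28 genes, so repeated measures of a gene count more than once. The share over all probe sets was not calculated. Per named gene, with 1 probe set each, 8.48% had all KO below all WT and 6.64% all above. Cox5a, Cox6b1 and Cox7a2 were apart on every one of their tested probe sets. The names of some probe sets of these genes carry a mark (a, s or x) for probes that match more than 1 transcript. With the mark a these are transcripts of the same gene. Taking the brightest probe set without such a mark, where a gene has one, left 25 members with a tested probe set. Of these, 19 were lower and 6 apart, with a subunit median of -0.21. Cox7c, Cox16 and Cox17 dropped out there because their probe sets without such a mark were below the filter.

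**Figure D5:**
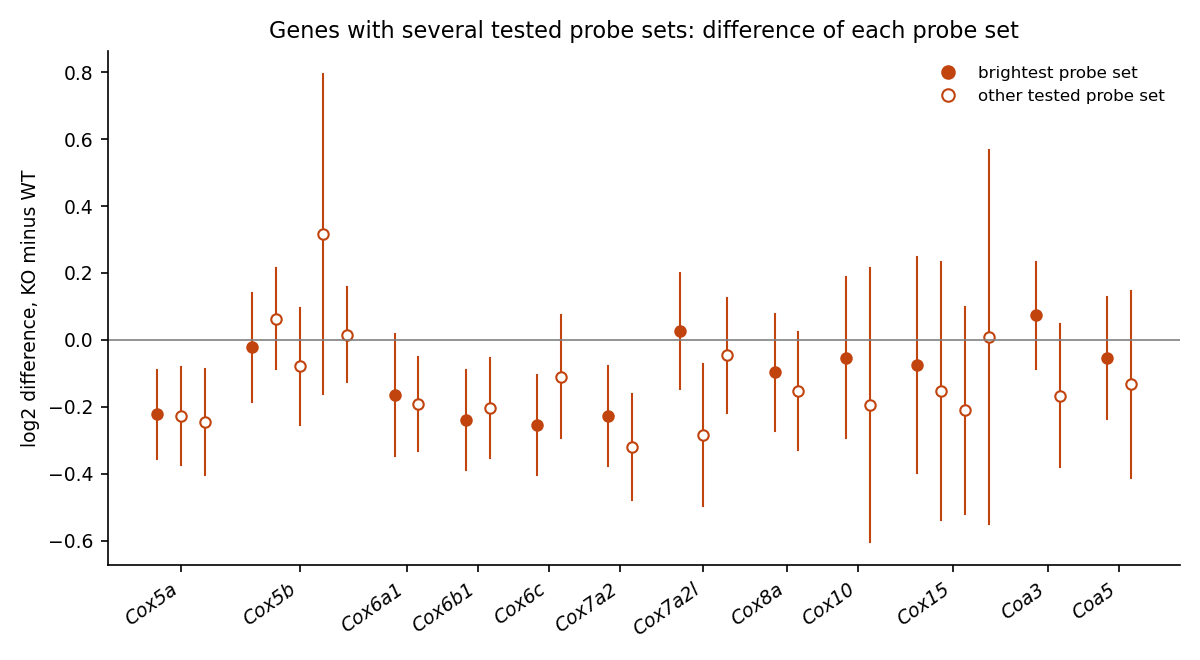
Log2 difference, KO minus WT, with its 95% interval from limma, for every tested probe set of the 12 members with more than 1, filled for the brightest probe set of a gene and open for the others. The 3 probe sets of Cox5a span 0.02, while the 5 of Cox5b lie on both sides of 0.

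Promoter sequence was read from RefSeq (GRCm38.p6) for 25 of the 32 genes, from 250 bases before to 50 after the start, and searched on both strands. The letters were GCGCATGC for NRF1, CCGGAAG for the ETS family that includes GABP, AAGGTCA for oestrogen-related receptors and AAGATGG for YY1. A member gene counts once if any of its promoters has a match, while the shares are over all 32851 promoters in the table. NRF1 letters were found for 1 of 12 subunit genes, Cox6a1, and for 0 of 13 assembly genes, against 2.71% of promoters. ETS letters were found for 3 of 12 subunit genes (Cox6a1, Cox6b1 and Cox8a). They were also found for 6 of 13 assembly genes (Cox10, Cox15, Cox16, Cox20, Sco1 and Surf1), against 8.86% of all promoters. YY1 letters were found in Cox7c, Cox10 and Cox20, against 6.34% of all, and oestrogen-related receptor letters in none of the 25, against 4.72%. A match is a description of the letters and not a bound site, and a window without them says nothing of the factor. The 170 bases before the start are shown for 4 subunits, Cox6a1 as the promoter with both NRF1 and ETS letters, Cox6b1 and Cox5a as genes lower on every probe set with and without an ETS match, and Cox5b as the bright subunit whose groups overlapped. They lie at chr5:115348959-115349128 (minus strand) for Cox6a1, chr7:30626115-30626284 (minus strand) for Cox6b1, chr9:57521062-57521231 (plus strand) for Cox5a and chr1:36691317-36691486 (plus strand) for Cox5b. Each reads 5′ to 3′ on the strand of its gene and ends at the base before the start. Capitals mark the matches; in Cox6a1 the first run holds NRF1 letters on both strands, which overlap because the motif is nearly its own reverse complement.
Cox6a1: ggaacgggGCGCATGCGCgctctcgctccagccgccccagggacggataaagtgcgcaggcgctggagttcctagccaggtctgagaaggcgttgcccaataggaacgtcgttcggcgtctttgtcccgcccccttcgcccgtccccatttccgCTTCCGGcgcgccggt
Cox6b1: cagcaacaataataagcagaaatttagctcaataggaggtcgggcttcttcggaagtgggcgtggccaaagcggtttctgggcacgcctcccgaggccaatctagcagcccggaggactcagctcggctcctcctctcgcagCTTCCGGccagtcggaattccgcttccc
Cox5a: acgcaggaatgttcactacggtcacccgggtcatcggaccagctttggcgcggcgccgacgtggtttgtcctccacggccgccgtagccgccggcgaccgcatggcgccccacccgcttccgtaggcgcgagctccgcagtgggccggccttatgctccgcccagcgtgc
Cox5b: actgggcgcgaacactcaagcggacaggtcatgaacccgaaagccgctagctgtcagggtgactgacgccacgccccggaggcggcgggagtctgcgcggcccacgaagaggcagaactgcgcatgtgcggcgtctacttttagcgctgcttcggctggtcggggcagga
Among these 4, Cox6b1 and Cox6a1, with ETS letters, differed by -0.24 and -0.16, and Cox5a and Cox5b, without, by -0.22 and -0.02. Cox8a, the remaining subunit gene with ETS letters, differed by -0.10. Since the 4 were chosen partly by their differences, they cannot show a relation between letters and difference.

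Other genes of the enzyme were taken as a further list of 24, of which 14 could be tested. Of these 14, 9 were lower in KO with a median of -0.07, and none was called. All KO were below all WT in 2 of them, against 8.48% of all named genes. The smallest p among them belonged to Tmem223, an assembly factor of the enzyme, with signals of 288, 392 and 345 in KO mice against 403, 461 and 397 in WT mice. All KO mice were below all WT mice there, at -0.29 (SE 0.12, adjusted p = 0.44). Smim20, which acts early on the first core subunit, gave -0.33 (SE 0.13, adjusted p = 0.45), with KO 3 inside the WT range. The mitochondrially encoded core subunits had no single-symbol probe set.

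Cytochrome c, its maturation and its partners in complex III were taken as a list of 4 genes. Of these, 3 were lower and apart, against 8.48% of all named genes. The median of the 4 was -0.27 and none was called. Cycs, which encodes cytochrome c itself, gave 4413, 4447 and 3945 in KO mice against 5027, 5139 and 5530 in WT mice. Every KO mouse was below every WT mouse, and the difference was -0.29 (SE 0.07, adjusted p = 0.14). Uqcrh, the hinge protein through which complex III meets cytochrome c, gave 2689, 2688 and 2770 in KO mice against 3326, 3426 and 3213 in WT mice. It was apart too, at -0.29 (SE 0.06, adjusted p = 0.087), while Hccs, which attaches haem to cytochrome c, differed by 0.0025.

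No gene of copper or haem supply was called. Of 9 copper genes, 6 were lower with a median of -0.03. The smallest p values were those of Slc25a3, the carrier that brings copper and phosphate into the matrix (-0.14, SE 0.07, adjusted p = 0.56, apart), and Atp7a, the copper-exporting pump (0.26, SE 0.15, adjusted p = 0.65, overlapping). Of 8 haem genes, 7 were lower with a median of -0.11. All KO were below all WT in 3 of the 8, against 8.48% of all named genes. Uros, an enzyme in the middle of haem synthesis, gave 209, 212 and 169 in KO mice against 330, 231 and 235 in WT mice. Its groups were apart, at -0.39 (SE 0.14, adjusted p = 0.40), and Abcb10, a mitochondrial transporter needed for haem synthesis, overlapped at -0.20.

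Among 16 tested regulators known from work on nuclear cytochrome oxidase genes, Ppargc1a alone was called, 10 were lower and the median was -0.05. Nrf1, Gabpa, Esrra and Yy1, whose motifs were searched above, gave -0.10, -0.08, -0.19 and 0.09, each with overlapping groups and adjusted p values from 0.72 to 0.90. Ppargc1b, the closest relative of Ppargc1a, gave 0.11 (95% interval -0.07 to 0.29).

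Markers of other cell types differed between the genotypes in part, and of all of them Ttr alone was called. All 5 thalamic markers were higher, with a median of 0.70 and sums of 1464 to 1830 in KO and 654 to 2179 in WT. Of the choroid plexus list, Ttr was called higher (0.92, adjusted p = 0.035), Clic6 gave 0.18, and Folr1 and Kl were below the filter. General neuronal markers had a median of 0.02 (3 of 5 higher), medium spiny neuron markers 0.07 (6 of 7 higher), cortical excitatory neuron markers -0.18 (4 of 5 lower), astrocyte markers 0.05 (3 of 5 higher), microglial markers 0.07 (3 of 5 higher) and endothelial markers -0.07 (4 of 5 lower). The part of any of these in the cytochrome oxidase differences was not tested.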

How the data were processed

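RNA of 3 KO and 3 WT striata was measured on 1 array each. The authors deposited linear-scale intensity values, 1 per probe set, which the submitters' processing notes credit to MAS5. Its version was not given in the sources used here. Scaling to a common trimmed mean (2% left off each end) removes differences in total RNA. The number of arrays limits the precision.

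Of 45101 probe sets, 64 were controls. The platform annotation gave 34945 probe sets 1 gene symbol and 932 several, 9160 were not listed, and 34741 matched the GRCm38.p6 gene table. Values were analysed as log2(signal + 16), so differences of dim genes are understated. A filter at the 40th percentile of mean log2 signal (a signal of 26.8) left 27022 probe sets. KO was compared with WT in limma 3.58.1 (R 4.3.3) with an intensity trend, with Benjamini-Hochberg adjustment over these 27022, and the procedure was tested on simulated data. A gene is represented by its brightest tested single-symbol probe set.

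The members and lists were chosen with earlier results of these data known, so lists are described by counts and medians. The genes named are all members, Ppargc1a, and for each other list its called genes or, without any, the 2 with the smallest p; further genes of a list were named after their values were seen. Alternatives were quantile normalization, median centring, offsets of 1 and 64, no filter or the 60th percentile, no trend, robust estimation, the replicate number as a block, other choices of probe set, a threshold of 0.1, and leaving out each array. Genotype and replicate number came from the sample titles.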

Additional observations from a re-analysis of the deposited data

How the results depend on the processing

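Across 18 alternatives no cytochrome oxidase gene was called, and the smallest adjusted p of any was 0.092 (Cox6c). In those that kept the same 28 members, 20 to 23 were lower in KO. Among these, 6 to 9 members had all KO below all WT with every mouse kept. With 1 mouse left out, where groups separate more easily, 8 to 12 did. The share of all named genes is given only for the main settings, where 8.48% had all KO below all WT. These counts therefore have no matching share beside them. The 60th percentile filter left 24 members (18 lower, 7 apart), probe sets of plain names 25 (19 and 6) and no filter 30 (23 and 8). Over all of these the subunit median ran from -0.25 to -0.18 and its difference from the assembly median from -0.22 to -0.12. With arrays centred on the median, the assembly median was -0.010 and that of all members -0.022; averaging all tested probe sets per gene gave -0.12 for all members. Leaving out 1 mouse at a time gave medians of all members from -0.13 (without WT 3) to -0.071, with -0.11 without KO 2, and assembly medians from -0.086 (without KO 2) to -0.019 (without KO 3), with -0.030 without WT 2. Of 469 single-gene values 443 kept their side, and 26, from 10 genes, changed sign. Cox5b became 0.022 with centring, 0.059 with averaged probe sets and 0.0023 with quantile normalization. With probe sets of plain names it became 0.32, from a dim probe set. Cox7a2l became -0.10 and Coa3 -0.047 with averaged probe sets, Coa3 -0.17 with plain names, and Cox6a2 -0.0009 with an offset of 64. With 1 mouse left out, Cox5b ran from -0.088 to 0.022, Cox6a2 from -0.15 to 0.22, Cox7a2l from -0.027 to 0.076, Cox15 from -0.22 to 0.087, Cox16 from -0.059 to 0.27, Cox19 from -0.049 to 0.096, Cox20 from -0.17 to 0.12, Sco2 from -0.013 to 0.080 and Coa5 from -0.11 to 0.0011. With no change of sign but by over 1.5 times, Coa3 ran from 0.043 (without WT 2) to 0.13 (without WT 1), Lrpprc from -0.12 (without WT 1) to -0.0076 (without WT 3), and, each lowest without KO 2, Cox10 from -0.11 to -0.0083 (without KO 3), Cox11 from -0.094 to -0.026 (without WT 2) and Surf1 from -0.086 to -0.028 (without KO 1). The causes were not tested. Over all 27022 probe sets, calls numbered 79 lower and 48 higher, 57 and 59 with centring, 64 and 36 with the replicate block, and 16 and 9 without the intensity trend. Deviations of same-numbered mice correlated at -0.009, -0.035 and 0.017, and those of differently numbered mice at -0.041 to 0.049. No pairing by replicate number was seen, which does not exclude one. The replicate block left 0 members called.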
